A study of Mus musculus with 6 samples.

Results

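The genes described here encode 9 hepatocyte membrane transporters or transporter subunits for bile acids, other organic anions and, in the case of Abcb4, phosphatidylcholine. They were taken by symbol from the 20673 genes of the deposited tables. They are the uptake carriers Slc10a1, Slco1b2, Slco1a1 and Slco1a4, the canalicular export pumps Abcb11, Abcb4 and Abcc2, and the basolateral exporters Abcc3 and Slc51b. Their RNA was measured by RNA sequencing of whole liver from C57BL/6J mice, 3 fed a regular diet (RD) and 3 fed a high-cholesterol diet (HCD) for 3 days, with 1 library per mouse. The labels call the RD livers untreated. Per the methods of the study, the HCD held cocoa butter, cholesterol and sodium cholate, itself a bile acid salt, and the RD was a standard rodent diet lower in fat, so that effects of cholesterol, cholate and fat cannot be told apart. The study used adult mice of both sexes, and the labels state no sex.

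Bile acids are made from cholesterol in the hepatocyte, conjugated, pumped into bile, taken back up in the ileum and returned to the liver in portal blood. Slc10a1 (NTCP) takes up conjugated bile acids with sodium at the sinusoidal membrane, and the Slco1 carriers (OATPs) take up organic anions without sodium. Abcb11 (BSEP) pumps bile salts into the canaliculus, Abcb4 (MDR2) moves phosphatidylcholine to the canalicular leaflet from which it enters bile, and Abcc2 (MRP2) exports conjugated organic anions. Abcc3 (MRP3) and the heterodimer of Slc51a and Slc51b (OST alpha and beta) return organic anions and bile acids to sinusoidal blood and are known for rising in cholestasis. The bile acid receptor Nr1h4 (FXR), which binds DNA with a retinoid X receptor, regulates several of these genes.

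Of the 9 transporters, Slc51b was higher with HCD in edgeR's test across 13105 genes, where 3.27% of all genes were called. The other 8 did not pass the threshold. Slc51b entered that test through its HCD counts alone, and its call was lost in 5 of the 6 fits that left out 1 liver (adjusted p 0.0565 to 0.132, edgeR). Abcb4 and Abcc3 had higher values in all 3 HCD livers than in any RD liver with smaller differences, and passed the threshold with DESeq2 and not with edgeR. Slco1a1 was lower in all 3 HCD livers and lowest by far in HCD replicate 1, the only liver with Xist, where Slco1a4 was highest, and neither gene passed the threshold. Values of the diets were fully apart for Slc51b, Abcb4, Abcc3 and Slco1a1, as they were for 27.6% of all genes tested. The main bile acid carriers by RNA level, Slc10a1, Slco1b2 and Abcb11, had overlapping values between the diets.

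Livers of the same diet differed in ways that touch these genes. HCD replicate 1 held 5032 counts of Xist, the X inactivation transcript of female cells, and 0 counts of the Y-linked genes Ddx3y, Eif2s3y, Kdm5d and Uty, whereas the other 5 livers held 0 counts of Xist and the summed FPKM of those 4 genes was 21.1 to 32.2. Genes known to be higher in male mouse liver, a list of 14 that does not contain the transporters, summed to 269 FPKM in HCD replicate 1, 11176 and 17536 in the other HCD livers and 22639 to 27139 in the RD livers. Genes known to be higher in female liver, a list of 16, summed to 2707 FPKM in HCD replicate 1 and to 6.3 to 43.1 in the other livers. The most abundant gene of the male list was Serpina1e and that of the female list Sult2a1, which had 15684 counts in HCD replicate 1 and at most 3 in any other liver. Transporter values that depend on HCD replicate 1 are therefore also given without it. Counts on genes totalled 13771630 to 23129576 with RD and 13935491 to 18545549 with HCD, and a count of 0 allows up to 0.130 to 0.218 CPM, the counts in each 1e+06 of the library (a limit of 3 counts, for counting error alone). Hepatocyte markers were abundant in all livers (Alb at 46309 FPKM on average with RD and 56267 with HCD). The labels number the livers without naming separate cages or cohorts, so p-values measure the spread between these 6 livers.

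The promoters of Abcb11 and Slco1b2 are shown because they alone held a match to the motif below with 1 mismatch, and were thus chosen by the search itself, and that of Slc51b because it was the transporter that rose. RefSeq windows from 250 bases before to 50 bases after the transcription start were found for 8 of the 9 transporters. They were searched for the inverted repeat of AGGTCA, any base (N) and TGACCT, which reads the same on both strands, the general form of sites bound by FXR with a retinoid X receptor. Capitals mark the closest match in each, and the sequences run 5′ to 3′ on the strand of the gene. The Abcb11 stretch is chr2:69342617-69342866 on the minus strand, the Slco1b2 stretch chr6:141629268-141629517 on the plus strand and the Slc51b stretch chr9:65422948-65423023 on the minus strand (RefSeq, GRCm38.p6).
Abcb11: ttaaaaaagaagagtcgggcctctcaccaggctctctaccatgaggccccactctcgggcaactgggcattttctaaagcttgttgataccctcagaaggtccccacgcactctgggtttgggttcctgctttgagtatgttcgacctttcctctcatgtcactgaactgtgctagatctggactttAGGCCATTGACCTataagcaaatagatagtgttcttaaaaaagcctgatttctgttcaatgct
Slco1b2: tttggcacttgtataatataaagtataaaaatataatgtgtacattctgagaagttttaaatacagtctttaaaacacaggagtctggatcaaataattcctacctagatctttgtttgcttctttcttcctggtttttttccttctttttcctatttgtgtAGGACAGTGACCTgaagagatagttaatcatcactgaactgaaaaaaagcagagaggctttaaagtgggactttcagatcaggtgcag
Slc51b: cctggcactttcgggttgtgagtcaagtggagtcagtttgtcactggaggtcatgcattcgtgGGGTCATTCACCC

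The Abcb11 match began 63 bases before the RefSeq start and differed from the motif at 1 of 12 defined positions (T4C, the motif's base first, counted from its 5′ end). The Slco1b2 match began 88 bases before its start and differed at the same position (T4A). At 1 mismatch or fewer the motif was found for 2 of the 8 transporters, and in 0.0822% of all 32851 RefSeq windows. The former counts genes and the latter single windows, of which a gene can have several, so the shares are not in the same unit. The closest match for Slc51b began 187 bases before the RefSeq start and had 3 mismatches (A1G, G9C and T13C), a distance that 11.4% of all windows reach. It runs over the Slc51b start of the gene annotation used for coordinates (65422955), so part of it lies inside the annotated gene. No window of Slc10a1, Slco1a1, Slco1a4, Abcb4 or Abcc2 had a match with 2 mismatches or fewer, and no window of Abcc3 was found. These matches describe letters in a short window and do not show binding.

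With RD, the transporters ranked by mean FPKM, fragments per kilobase of gene length scaled to a library total by the authors, as Slc10a1 (297 ± 70.3, SD, n = 3 for all levels), Abcb11 (212 ± 29.8), Slco1b2 (212 ± 52.8), Slco1a1 (122 ± 6.95), Abcc2 (64.5 ± 3.89), Abcc3 (42.2 ± 10.6), Abcb4 (32.9 ± 5.29), Slco1a4 (7.31 ± 4.75) and Slc51b (0.169 ± 0.185). The values of neighbours in this order overlapped for Abcb11 with Slco1b2 and for Abcc3 with Abcb4, and the other neighbours did not overlap. With HCD the order was Slc10a1 (232 ± 53.8), Abcb11 (210 ± 20.9), Slco1b2 (206 ± 41.4), Abcc2 (74.3 ± 13.2), Abcc3 (72.5 ± 21.6), Abcb4 (50.1 ± 3.79), Slco1a1 (47.8 ± 42.7), Slco1a4 (23.6 ± 28.0) and Slc51b (5.03 ± 1.52). Without HCD replicate 1, Slco1a1 was at 71.2 FPKM, above Abcc3 (60.4) and Abcb4 (51.0), Slco1a4 was at 7.48, and Abcb11 (221) stood above Slc10a1 (217). With all 3 HCD livers Slco1b2 did not overlap with Abcc2, nor Abcc3 with Abcb4, and the other neighbours overlapped. Slc51b stayed the lowest of the 9 with both diets. The fold changes below come from the read counts and not from FPKM.

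**Figure D1:**
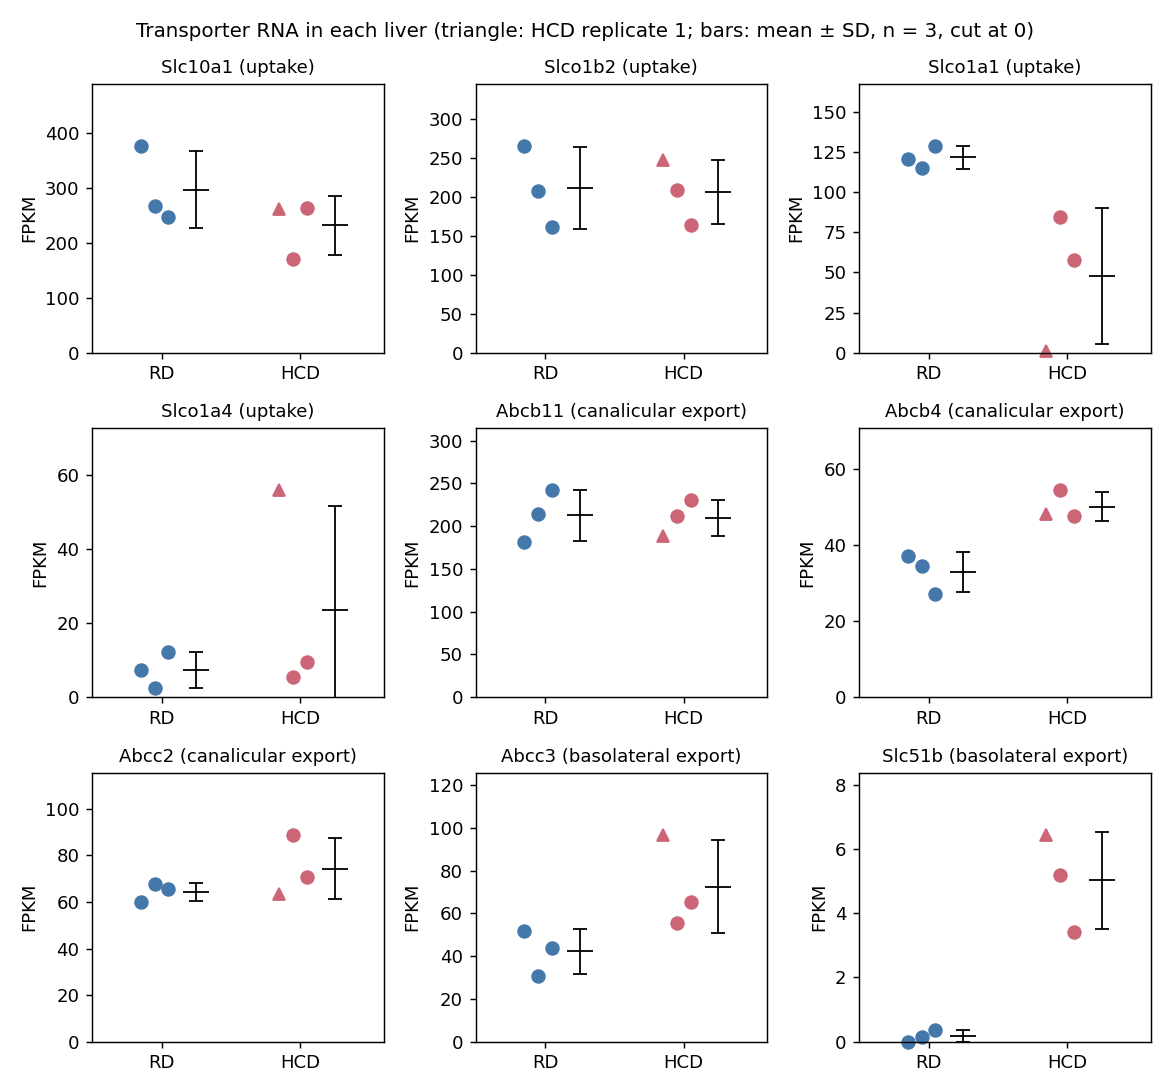
FPKM of each transporter (vertical axes, each from 0) in the 3 RD livers and the 3 HCD livers, with the mean and SD beside the points and HCD replicate 1 as a triangle. Slc51b, Abcb4 and Abcc3 lie higher in all HCD livers than in any RD liver, Slco1a1 lies lower, and HCD replicate 1 holds the extreme value of Slco1a1 and Slco1a4.

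Slc51b (ENSMUSG00000053862, chromosome 9 from 65412714 to 65422955) had 0, 1 and 4 counts in RD replicates 1, 2 and 3, and 60, 37 and 20 counts in HCD replicates 1, 2 and 3. The diets did not overlap, and each HCD liver held at least 5 times the counts of the highest RD liver. In CPM after scaling of the library sizes, Slc51b was at 0.0811 ± 0.0874 (SD, n = 3) with RD and 2.40 ± 0.718 with HCD. For HCD over RD, edgeR gave a log2 fold change of 4.72 with a standard error of 0.82 (quasi-likelihood; Benjamini-Hochberg adjusted p = 0.0258 across the genes tested). With the counts of each diet added up, 117 against 5, the ratio was 29.2 after scaling, with an exact 95% binomial interval of 12.2 to 91.6 that covers counting error only. An exact two-sided permutation test of the 6 livers gave p = 0.1, the smallest p that 3 livers against 3 allow.

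Slc51b passed the filter on low counts through the HCD livers alone, since 0 RD and 3 HCD livers had 10 counts or more, and genes that pass in this way must differ to some degree. Of the 13105 genes tested, 15 had no RD library above 4 counts, and 6 of these were called higher, with a median log2 fold change of 3.25 over the 15. Slc51b came second among them by p. The edgeR call was kept without RD replicate 3 (adjusted p = 0.0468, log2 fold change 6.03) and was lost without any other liver, where the adjusted p was 0.103 when RD replicate 1 was left out, 0.132 for RD replicate 2, and 0.0565, 0.0568 and 0.0569 for HCD replicates 1, 2 and 3. The log2 fold change stayed between 4.14 and 6.03 in these fits. Exons of Slc51b share 91 bases with Rasl12 on the opposite strand, and the strand setting of the counting is not known, so reads there cannot be assigned with certainty. Rasl12 had 34 counts over all 6 livers.

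Slc51a (ENSMUSG00000035699, chromosome 16 from 32474504 to 32487879), whose protein Slc51b needs for transport, had 4, 0 and 2 counts in the RD livers and 8, 0 and 13 in the HCD livers. It did not pass the filter and was not tested. Its values overlapped between the diets and lay at 0.0427 ± 0.0438 FPKM (SD, n = 3) with RD and 0.228 ± 0.249 with HCD. With HCD, the RNA of Slc51b was thus higher per length than that of Slc51a in all 3 livers (3.43 FPKM or more against 0.494 or less). Bile duct cells and ileal enterocytes also express this heterodimer. Of the 8 bile duct marker genes, 7 were tested and 0 were called in either direction by edgeR, with 0 up and 1 down at an unadjusted p below 0.05, where 3.27% of all genes were called and 11.1% and 9.81% were up and down at that p. Their summed FPKM was 66.2 to 97.9 with RD and 62.8 to 103 with HCD, and that sum rested mostly on Spp1 and Slc10a2. Krt7 and Krt19, which define bile duct cells, were at 0.210 and 1.23 FPKM with RD and 0.334 and 3.11 with HCD, and the HCD values of each lay above the RD values, while 27.6% of all genes had diets apart in either direction. The part of bile duct cells in the Slc51b result was not tested. In whole liver, more cells of a type and more RNA per cell cannot be told apart. Among enterocyte markers, Vil1 had at most 8 counts in any liver, and Fabp2, the intestinal fatty acid binding protein, rose from 52.5 to 200 FPKM (log2 fold change 1.91, adjusted p = 0.00295, edgeR). Slc10a2, the ileal bile acid carrier and the other tested gene of that list, went the other way, at 21.2 FPKM with RD and 9.0 with HCD (log2 fold change -1.26, adjusted p = 0.188, edgeR).

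Over the 6 livers, the genes whose log2 CPM followed Slc51b most closely were Fzd6, a Wnt receptor (Pearson's r 0.9995), Fam111a, a protease gene (0.9984), and Man2b1, a lysosomal mannosidase (0.9975). In total 158 genes had r above 0.95, and all of these correlations rest on the split of Slc51b into 3 RD livers near 0 and 3 HCD livers above them.

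Abcc3, the other basolateral exporter (ENSMUSG00000020865, chromosome 11 from 94343295 to 94392997), was at 51.9, 30.9 and 43.8 FPKM in the RD livers and at 96.8, 55.3 and 65.5 in the HCD livers. Every HCD value lay above every RD value, the nearest being 55.3 against 51.9, and HCD replicate 1 stood highest. The log2 fold change was 0.76 (standard error 0.25), which did not pass the threshold in edgeR (adjusted p = 0.134, unadjusted p = 0.0142) and passed it in DESeq2 (adjusted p = 0.0211). Without HCD replicate 1 the log2 fold change was 0.51 (adjusted p = 0.234, edgeR). The Abcc3 share of the basolateral FPKM was 99.6% ± 0.415 in the RD livers and 93.4% ± 1.84 in the HCD livers (SD, n = 3), the rest being Slc51b, so that Abcc3 held most of the RNA of the pair with both diets. The summed FPKM of the pair was 31.0 to 51.9 with RD and 60.5 to 103 with HCD.

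Abcb4 (ENSMUSG00000042476, chromosome 5 from 8893717 to 8959231) was at 37.2, 34.4 and 27.0 FPKM in the RD livers and at 48.2, 54.4 and 47.6 in the HCD livers. The diets were apart, and the 3 HCD livers were close to each other. The log2 fold change was 0.58 (standard error 0.17), past no threshold in edgeR (adjusted p = 0.107, unadjusted p = 0.00865) and past it in DESeq2 (adjusted p = 0.0281). It did not rest on HCD replicate 1, without which it was 0.62 (adjusted p = 0.117, edgeR). Abcb4 transcripts align with those of Abcb1a and Abcb1b over 698 and 687 bases at 91.3% and 91.1% identity, and these genes held 768 and 226 counts over all livers, against at least 3230 for Abcb4 in each liver.

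Values of the bile salt pump overlapped between the diets. Abcb11 (ENSMUSG00000027048, chromosome 2 from 69238282 to 69342616) was at 182, 214 and 242 FPKM with RD and 188, 212 and 230 with HCD, so that the HCD livers lay within the RD range. Its log2 fold change was -0.04 (standard error 0.17, adjusted p = 0.925, edgeR), and 2 standard errors on each side span -0.37 to 0.30. Abcc2 (ENSMUSG00000025194, chromosome 19 from 43782192 to 43840740) was at 60.2, 67.7 and 65.5 FPKM with RD and at 63.3, 88.9 and 70.6 with HCD. HCD replicate 2 was the highest liver for Abcc2, and HCD replicate 1 lay within the RD range. The Abcc2 log2 fold change was 0.19 (standard error 0.18, adjusted p = 0.585, edgeR), with a span of -0.17 to 0.54. The ratio of Abcb4 to Abcb11 FPKM was 0.204, 0.161 and 0.112 in the RD livers and 0.256, 0.257 and 0.207 in the HCD livers, which did not overlap by a narrow margin. Ratios within a liver do not depend on the scaling of the library.

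**Figure D2:**
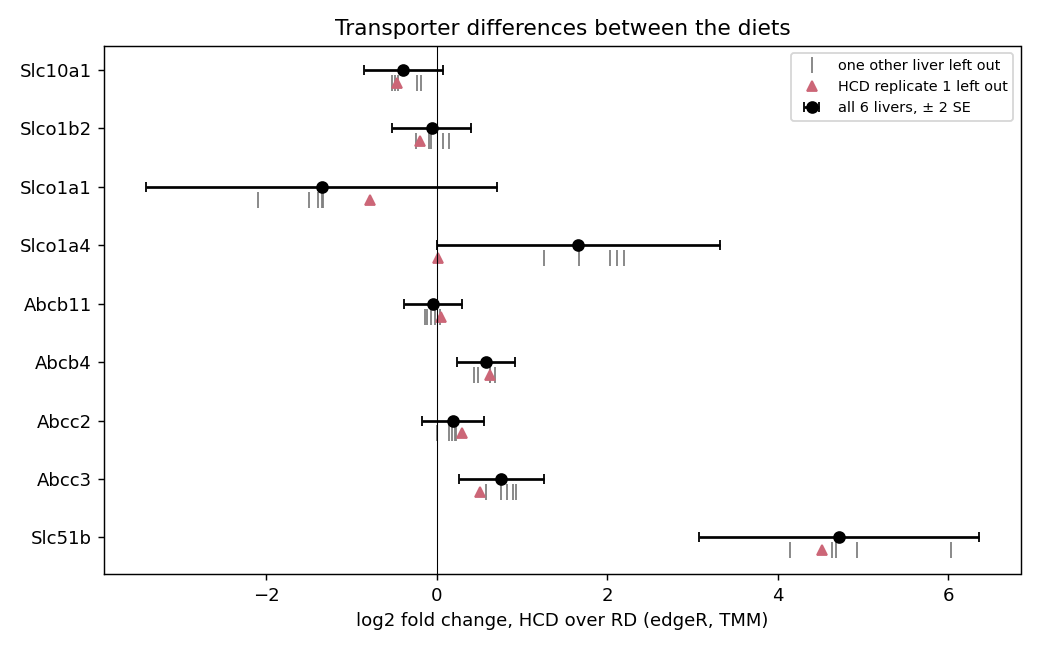
Log2 fold change of HCD over RD from edgeR (horizontal axis) for each transporter, as a black point with 2 standard errors on each side, above the values with 1 liver left out (grey ticks) and without HCD replicate 1 (triangle). Slc51b stays above 4 whichever liver is left out, while Slco1a4 goes from 1.66 to 0.02 and Slco1a1 from -1.35 to -0.78 without HCD replicate 1.

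Among the uptake carriers, Slc10a1 (ENSMUSG00000021135, chromosome 12 from 80953183 to 80968705) was at 377, 267 and 247 FPKM with RD and 262, 170 and 264 with HCD. RD replicate 1 was the highest and HCD replicate 2 the lowest of the 6, and the other 4 livers lay between 247 and 267. The log2 fold change was -0.39 (standard error 0.23, adjusted p = 0.370, edgeR), with a span of -0.84 to 0.07. Slco1b2 (ENSMUSG00000030236, chromosome 6 from 141629518 to 141686646), the main liver OATP of the mouse, was at 266, 208 and 161 FPKM with RD and 247, 209 and 164 with HCD. The spread within each diet exceeded the difference between them, at -0.06 on the log2 scale (standard error 0.23, adjusted p = 0.908, edgeR) and a span of -0.53 to 0.41.

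Slco1a1 and Slco1a4 lie in the same cluster of Slco1 genes on chromosome 6 as Slco1b2. Slco1a1 is known as higher in male and Slco1a4 as higher in female mouse liver. Slco1a1 (ENSMUSG00000041698, 141907282 to 141946962) was at 121, 115 and 129 FPKM in the RD livers and at 0.925, 84.4 and 58.0 in HCD replicates 1, 2 and 3. HCD replicate 1, the liver with Xist, stood far below all others with 64 counts, where the next lowest liver had 2516. The other HCD livers also lay below every RD liver. With all livers the log2 fold change was -1.35 (standard error 1.03, adjusted p = 0.492, edgeR), and without HCD replicate 1 it was -0.78 (adjusted p = 0.0824, edgeR), so that neither passed the threshold. The summed FPKM of the male list was below that of every RD liver in those 2 livers as well. Without Serpina1e, a sum chosen after the data were seen, the other 13 genes came to 8589 to 10556 FPKM with RD. That sum was 10598 in HCD replicate 2 and 6985 in HCD replicate 3. Mup20, named after its values were seen, held 7799 FPKM of it in HCD replicate 2, above its range of 4706 to 7175 in the RD livers. The place of HCD replicate 2 in such sums thus depended on whether these abundant genes were counted, and the 13-gene sum does not show the less abundant ones. Of the 14 genes, 7 had HCD values below all RD values, beside 13.7% of all genes tested, and edgeR called 0, with 3 lower at an unadjusted p under 0.05, beside 9.81% of all genes. These counts include HCD replicate 1, and without it 7 of the 14 were still below all RD values, beside 19.1% of all genes. The spread of Slco1a1 was small with RD, where the SD of log2 CPM was 0.05 against a median of 0.20 over all genes tested. With HCD it was 3.52 against a median of 0.29, and 0.42 without replicate 1.

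Slco1a4 (ENSMUSG00000030237, 141805440 to 141856199) was at 7.35, 2.54 and 12.1 FPKM with RD and at 55.9, 5.44 and 9.51 in HCD replicates 1, 2 and 3. HCD replicate 1 was the only liver outside the RD range. The log2 fold change was 1.66 (standard error 0.83, adjusted p = 0.297, edgeR) and fell to 0.02 without HCD replicate 1 (adjusted p = 0.990, edgeR). Slco1a4 was variable within RD as well, where its SD of log2 CPM was 1.09, larger than that of 99.3% of the genes tested. Transcripts of Slco1a1 and Slco1a4 align with each other over 1711 bases at 87.1% identity, so that some reads could be assigned to either.

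Within a liver, Slc10a1 made up 36.3% to 53.3% of the summed FPKM of the 4 uptake carriers and Slco1b2 29.3% to 44.5%. Slco1a1 made up 15.7%, 19.4% and 23.5% in the RD livers and 0.163%, 18.0% and 11.7% in HCD replicates 1, 2 and 3. Slco1a4 made up 9.88% in HCD replicate 1 and 0.429% to 2.20% in the other livers. The sum of the 4 was 772, 593 and 548 FPKM with RD and 566, 468 and 496 with HCD, which overlapped. Divided by the summed FPKM of Abcc3 and Slc51b, uptake RNA was 14.9, 19.1 and 12.4 times the basolateral export RNA in the RD livers and 5.48, 7.74 and 7.19 times in the HCD livers. These ratios did not overlap, also without HCD replicate 1, and they are a description with no test.

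**Figure D3:**
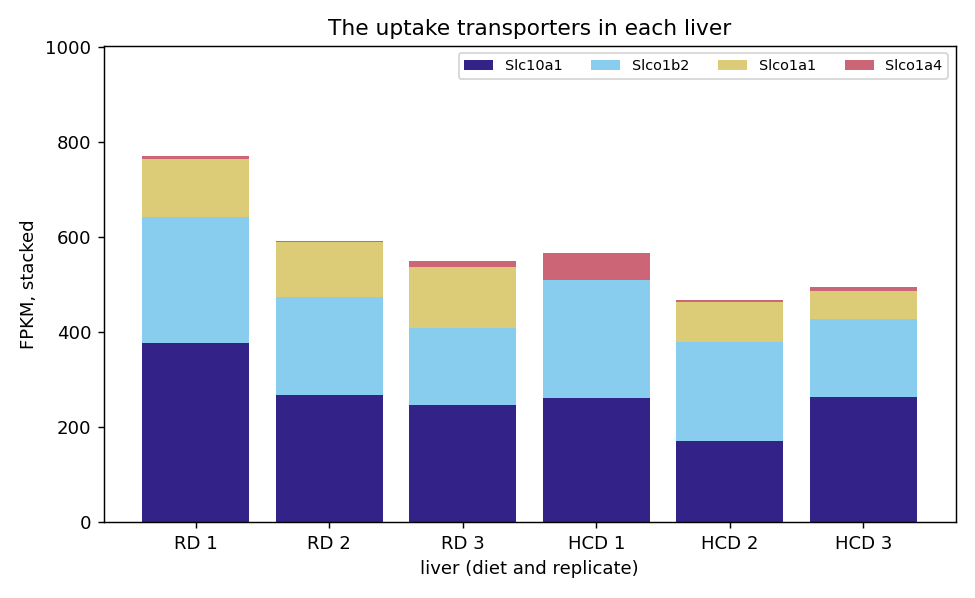
FPKM of the 4 uptake carriers stacked for each liver (vertical axis, from 0; horizontal axis, diet and replicate). Slco1a1 takes 15.7% to 23.5% of the sum in the RD livers and 0.163% in HCD replicate 1, where Slco1a4 takes 9.88%.

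Counted over the 9 transporters, all of which were tested, edgeR called 1 higher and 0 lower, where 3.27% of all genes tested were called (1.95% higher and 1.32% lower). Under an unadjusted p of 0.05 lay 3 higher and 0 lower transporters, against 20.9% of all genes (11.1% higher and 9.81% lower). DESeq2 called 3 higher (Slc51b, Abcb4 and Abcc3) and 0 lower, and it called more of all genes, 7.20% of 13822 with an adjusted p (4.01% higher and 3.19% lower). Values of the diets were fully apart for 3 higher transporters and 1 lower one, as they were for 27.6% of all genes. The median log2 fold change was 0.19, with 5 of 9 above 0, beside a median of 0.01 over all genes tested. The differences varied with gene length in these libraries. Genes as short as Slc51b (709 bases of exon) fell in the shortest 10th, with a median log2 fold change of 0.32, and Abcc3, Abcb4 and Abcc2 were in classes with medians of -0.07 and -0.12. With the trend removed, the log2 fold change was 4.49 for Slc51b (adjusted p = 0.0375, edgeR), 0.71 for Abcb4 (adjusted p = 0.0901, edgeR) and 0.83 for Abcc3 (adjusted p = 0.126, edgeR).

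Other genes of bile acid and organic anion handling were counted by lists. Of 25 other transporters listed, 16 were tested, of which 2 rose and 0 fell, beside 1.95% and 1.32% of all genes. They were Abcg5 and Abcg8, the partners of the canalicular sterol exporter, whose annotated spans on chromosome 17 overlap, so that reads there are uncertain. Abcg5 (ENSMUSG00000040505, chromosome 17 from 84658234 to 84683011) went from 28.8 ± 16.0 FPKM (SD, n = 3) with RD to 195 ± 32.5 with HCD, or 2.74 on the log2 scale (standard error 0.35, adjusted p = 0.0104, edgeR). Without RD replicate 1 Abcg5 was at 2.57 (adjusted p = 0.0617, edgeR). Abcg8 (ENSMUSG00000024254, chromosome 17 from 84676302 to 84700333) went from 30.7 ± 12.6 FPKM to 193 ± 6.99, or 2.64 on the log2 scale (standard error 0.26, adjusted p = 0.00407, edgeR), and was called whichever liver was left out. The sodium-dependent carriers Slc10a2 and Slc10a5 and the organic anion carrier Slc22a7, named after their values were seen, each had HCD values below all RD values, with log2 fold changes of -1.26, -0.73 and -1.84 (adjusted p = 0.188, 0.172 and 0.0940, edgeR). Slc22a7 and Slc10a2 were lowest in HCD replicate 1, and without it their log2 fold changes were -1.42 and -0.83 (adjusted p = 0.0872 and 0.140, edgeR). That of Slc10a5 was -0.76 without the same liver (adjusted p = 0.223, edgeR).

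The receptors and regulators numbered 16, of which 14 were tested, 1 rose and 1 fell, again beside 1.95% and 1.32% of all genes. Nr0b2 (SHP), a repressor induced by FXR that lowers bile acid synthesis, was at 31.4, 56.7 and 49.5 FPKM with RD and 119, 88.7 and 147 with HCD. Every HCD liver was above every RD liver (log2 fold change 1.34, standard error 0.25, adjusted p = 0.0303, edgeR). Rxra, the retinoid X receptor that pairs with FXR, went from 138 ± 9.20 FPKM (SD, n = 3) to 87.2 ± 4.76 (log2 fold change -0.68, standard error 0.14, adjusted p = 0.0449, edgeR). The Nr0b2 call was kept without HCD replicate 2 and lost without any other liver (adjusted p 0.0502 to 0.112, edgeR), and the Rxra call was lost whichever liver was left out (adjusted p 0.0673 to 0.193, edgeR). With the trend of gene length removed, neither was called (adjusted p = 0.0628 for Nr0b2 and 0.0907 for Rxra, edgeR). Their log2 fold changes were then 1.14 and -0.6, and over all 14 alternative fits 1.12 to 1.53 and -0.76 to -0.6. Nr1h4 (FXR), named for its role after its value was seen, was at 58.5 ± 11.8 FPKM with RD and 56.6 ± 12.5 with HCD (log2 fold change -0.08, standard error 0.20, adjusted p = 0.865, edgeR). Hnf4a, a hepatocyte transcription factor and the most abundant of the list, was at 216 ± 22.9 and 172 ± 27.1 FPKM (log2 fold change -0.36, adjusted p = 0.279, edgeR).

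Of 15 genes for canalicular anchoring, polarity and junctions, 14 were tested and 0 were called by edgeR, with 0 up and 2 down at an unadjusted p below 0.05, where 11.1% and 9.81% of all genes were. The most abundant was Slc9a3r1, a scaffold under the canalicular membrane, at 181 ± 14.8 FPKM with RD and 183 ± 50.1 with HCD. Of 8 genes for bile acid conjugation and sulfation, 7 were tested and 0 were called by edgeR, with 1 up and 0 down at an unadjusted p below 0.05, which is near the same shares of all genes. Slc27a5, the bile acid CoA ligase and the most abundant of those 7, was at 575 ± 71.4 FPKM with RD and 545 ± 59.8 with HCD. The medians of the log2 fold changes were -0.01, -0.05, -0.04 and -0.17 for the other transporters, the receptors, the canalicular genes and the conjugation genes, beside 0.01 over all genes tested.

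**Figure D4:**
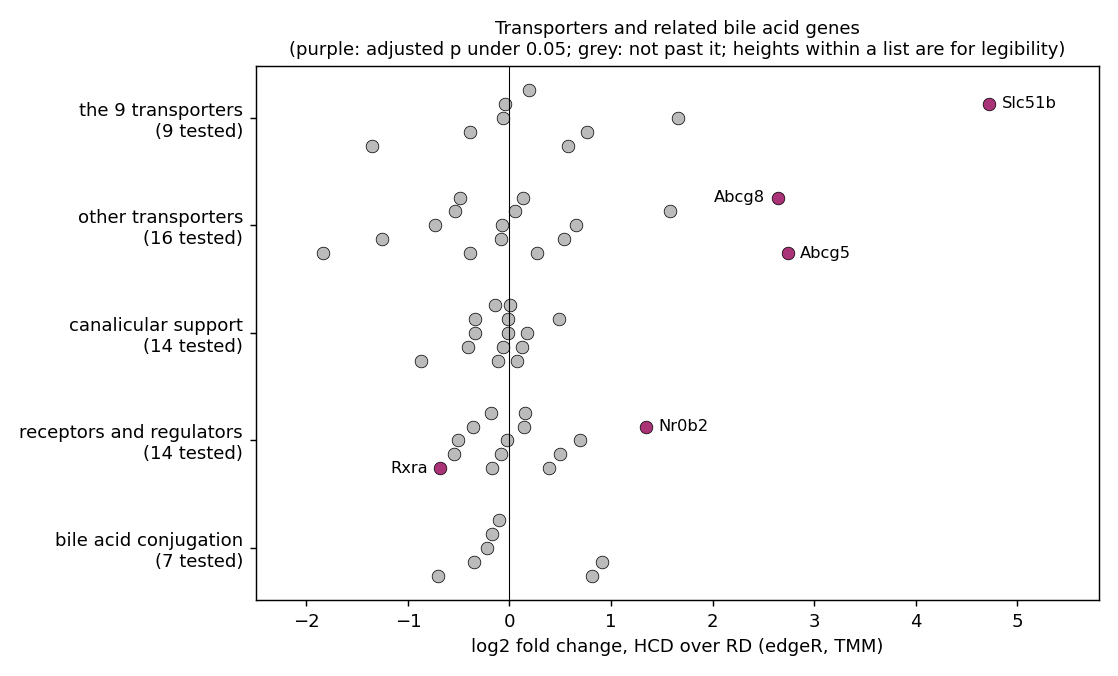
Log2 fold change of HCD over RD from edgeR (horizontal axis) for the 9 transporters and for 4 lists of related genes, with genes past an adjusted p of 0.05 in purple and named. Slc51b, Abcg5, Abcg8 and Nr0b2 lie to the right, Rxra to the left, and the other genes in grey did not pass the threshold.

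Markers of other liver cells overlapped between the diets in their summed levels. Of 5 Kupffer cell genes 5 had log2 fold changes above 0 with a median of 0.91, and their summed FPKM was 59.0, 70.6 and 106 with RD and 209, 176 and 85.7 with HCD. The sums were 24.1 to 43.6 with RD and 26.6 to 44.5 with HCD for 5 endothelial genes, and 38.5 to 48.9 and 45.3 to 70.4 for 5 stellate genes. EdgeR called 0 of these 15 genes, with 3 Kupffer, 0 endothelial and 1 stellate gene up and 0 down at an unadjusted p below 0.05, beside 11.1% and 9.81% of all genes. The most abundant genes of the lists were Cd5l, Clec4g and Dcn, and their part in the transporter values was not tested.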

How the data were processed

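Liver RNA of 6 C57BL/6J mice (3 RD, 3 HCD) was sequenced by Novogene. The authors deposited raw read counts per gene and FPKM, whose library total is not stated. The log2 fold changes and p-values that the authors deposited come from their own comparison and were not used. The submitters' processing notes name STAR, HTSeq, DESeq2, edgeR and GRCm39 without roles, and no source used here gives the strand setting. The gene length that counts divided by FPKM imply equalled the exon length of GENCODE M21 (GRCm38) for 95.0% to 95.1% of genes in a library and for all 9 transporters (over livers with at least 20 counts), so coordinates were taken from M21 by Ensembl identifier.

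Counts were tested in R 4.3.3 with edgeR 4.0.16 (filterByExpr by diet, TMM factors 0.886 to 1.07, glmQLFit and glmQLFTest, two-sided, no covariate), which left 13105 of 20673 genes. Calls needed a Benjamini-Hochberg adjusted p below 0.05 and no minimum fold change, as in the study. Permutation tests were exact over all 20 assignments, on log2 of CPM plus 0.5. Alternatives were DESeq2 1.42.0, RLE factors, library sizes alone, no filter, limma-trend (limma 3.58.1) on log2 of FPKM plus 1 or 0.1 above a mean of 0.1 FPKM, a length-trend correction by loess (span 0.5), a replicate block and leaving out each liver. The edgeR script was tested on simulated data. Counts of pairs of livers of 1 diet differed far above sampling noise (chi-square per degree of freedom 30.1 to 154). Transcripts were aligned with minimap2 2.31 (at least 200 bases), and figures were drawn with matplotlib 3.10.9 in Python 3.11.15.

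The members and lists were chosen with earlier results of these data known. Named are the 9 transporters, Slc51a, sex marker genes, the called genes and the most abundant gene of each list, and the 3 genes most correlated with Slc51b, which was the transporter called; Krt7, Krt19 and Vil1, which define other cell types, genes that share sequence with a transporter, and the others marked so in the text were named after their values were seen. The most abundant gene of the list of other transporters is not reported here.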

Additional observations from a re-analysis of the deposited data

How the results depend on the processing

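Directions of Slc10a1, Slco1a1, Slco1a4, Abcb4, Abcc2, Abcc3 and Slc51b were the same in all 14 alternative fits of each. Slco1a1 moved from -1.35 to -2.26 with the replicate block, -2.52 and -2.83 with limma-trend at pseudocounts of 1 and 0.1, and -2.09 without HCD replicate 2, and Slc10a1 from -0.39 to -0.18 without RD replicate 1 and -0.23 without HCD replicate 2. Abcc2 at 0.19 ranged from 0.01 without HCD replicate 2 to 0.31 with the length-trend correction, and none of these passed the threshold. Abcb11 changed sign to 0.04 with the length-trend correction, 0.04 without RD replicate 3 and 0.05 without HCD replicate 1 (range over the livers left out -0.14 to 0.05), and Slco1b2 to 0.14 without RD replicate 1 and 0.08 without HCD replicate 3 (range -0.24 to 0.14), neither past the threshold in any fit. With DESeq2, Abcb4 (0.57) and Abcc3 (0.74) passed the threshold, which made 3 transporters called higher, as many as at an unadjusted p under 0.05. Leaving out livers gave 0 to 1 called higher, and Slc51b at 4.14 to 6.03. Limma-trend with a pseudocount of 1 FPKM gave Slc51b a smaller log2 fold change of 2.35, still called, as its RD values lie below that pseudocount. The replicate numbers do not pair the livers (correlations of same-numbered livers -0.0838, 0.1186 and -0.0298), and with the replicate block Slc51b was at 4.76 (adjusted p = 0.0809, edgeR) and 0 transporters were called, with 71 genes higher and 65 lower over the whole table in place of 255 and 173. Over all genes, the count called higher and lower was 158 and 161 with library sizes alone, 364 and 285 with no filter, 138 and 113 with the length-trend correction, 554 and 441 with DESeq2, 141 and 78 with limma-trend at a pseudocount of 1, 177 and 98 at 0.1, 1453 and 1286 at an unadjusted p below 0.05, and 15 to 200 and 21 to 141 with 1 liver left out (15 and 21 without RD replicate 1). The Nr0b2 call was also lost with the replicate block (adjusted p = 0.0657, edgeR) and with limma-trend at pseudocounts of 1 and 0.1 (0.0654 and 0.0574), and the Rxra call with the block (0.0912). Depth limits Slc51b and Slc51a, with at most 60 and 13 counts in a liver. The cause of these shifts was not tested.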
